A study of Mus musculus with 9 samples.

Results

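Passenger strands, marked with a star in older microRNA names (miR-9*), were followed through a study of visual deprivation in mouse primary visual cortex. The members were all mouse probe names on the array that end in a star, which gave 115 of 611 mouse names. They were examined for which star strands were measurable, which differed after deprivation, and whether the ratio of a star strand to the other strand of its hairpin stayed the same across the groups. The strand named without the star (miR-9 for miR-9*) is called the guide here and was used only as the reference of its pair. Of the 115 star names, 103 had a guide of exactly that name on the array, 9 were matched after the hairpin number was dropped (miR-30c for miR-30c-1*), and 3 (miR-125b*, miR-199b* and miR-297a*) had no guide of the same name.

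Primary visual cortex was taken from C57BL6 mice aged 28 days. Of the 9 samples, 3 came from monocularly deprived mice, in which 1 eye was sutured at postnatal day 24 and the cortex on the opposite side was taken. Another 3 came from mice dark-reared since birth, and the last 3 came from control mice kept on a normal light cycle. Per sample, 100 ng of RNA was labelled with the dye Cy3 and hybridised at 64 °C to a 1-colour Agilent mouse miRNA array. Nothing in the labels says that the 3 samples of a group were separate animals, and each p-value therefore reflects variation among these arrays alone, possibly technical. The headers place the 3 monocularly deprived arrays on slide 2 and scan 2, and the other 6 arrays on slide 1 and scan 1. Monocular deprivation and slide therefore cannot be told apart in any difference given below for that group.

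A microRNA hairpin is cut by the enzyme Dicer into a duplex of a pair of short strands. An Argonaute protein keeps one of them, the guide, which pairs with target messages mainly through its seed (bases 2 to 8), and the other strand is usually degraded. Some passenger strands are also loaded and act on targets of their own. In the nervous system miR-9 and miR-9* are both known to be abundant in neural progenitors and neurons, and each represses parts of the REST silencing complex. Both strands of a hairpin come from the same precursor molecule, and the ratio between them is set by strand choice and by the stability of each strand.

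RefSeq mature sequences on mouse build GRCm38.p6 were matched to 40 of the 46 star strands that entered the tests. In 37 matched pairs the star strand and its guide came from the same hairpin. The star strand lay on the 5′ arm in 12 cases and on the 3′ arm in 28. The pairs on which the results turn are given below 5′ to 3′, with the seed in capitals, so that the seed that each strand would present can be compared.
miR-9*: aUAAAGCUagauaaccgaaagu
miR-9: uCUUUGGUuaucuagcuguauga
miR-136*: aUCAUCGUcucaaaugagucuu
miR-136: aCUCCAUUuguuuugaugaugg
miR-411*: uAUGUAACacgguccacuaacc
miR-411: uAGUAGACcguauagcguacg
miR-30c-1*: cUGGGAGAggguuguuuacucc
miR-30c-2*: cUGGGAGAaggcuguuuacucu
miR-30c: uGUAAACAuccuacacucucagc
miR-99b*: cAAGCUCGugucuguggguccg
miR-99b: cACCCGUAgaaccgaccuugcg
miR-295*: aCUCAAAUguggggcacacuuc
miR-125b*: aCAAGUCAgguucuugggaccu

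miR-9* and miR-9 are encoded identically in 3 hairpins, of which Mir9-1 holds the guide at chr3:88215613-88215635 and the star strand at chr3:88215652-88215673, both on the plus strand. Mir136 (guide chr12:109595331-109595352, star chr12:109595366-109595387) and Mir411 (guide chr12:109710190-109710210, star chr12:109710225-109710246) lie on the plus strand of chromosome 12 in the imprinted Dlk1-Dio3 region. Mir99b lies on chromosome 17, Mir295 on chromosome 7 and the hairpin of miR-125b* (Mir125b-2) on chromosome 16. Among the matched star strands, 3 pairs shared a seed: miR-30c-1* with miR-30c-2* (UGGGAGA), miR-30a* with miR-30e* (UUUCAGU), and miR-24-1* with miR-24-2* (UGCCUAC). The star strands of the miR-30 hairpins thus fall into more than 1 seed group. The miR-30c guide is produced by both Mir30c-1 and Mir30c-2, so the ratios of miR-30c-1* and miR-30c-2* share 1 reference.

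Most star strands were dim or undetected. The scanner software called 44 to 47 of the 115 star names detected on the monocularly deprived arrays, 40 to 54 on the dark-reared arrays and 42 to 48 on the control arrays. In all, 35 star names were detected on all 9 arrays, 58 on none, and 46 on all 3 arrays of at least 1 group. The last 46 were tested, and 27 of them stood well above the local background on every array. A further 11 names that were detected somewhere but in no complete group were not tested. A star strand that passed only through the group in which it was bright had to differ to some extent, which bears on miR-186* and miR-378*, detected in full only in monocularly deprived cortex, and on miR-483* and miR-467b*, detected in full only in dark-reared cortex. Entry through the brighter groups likewise favours a decrease in the dimmer one. That bears on miR-295* and miR-125b*, which were well above background on no monocularly deprived array.

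Levels are log2 intensities over each array's 75th percentile, with a floor at -7.89, and they depend on each probe's own brightness as well as on abundance. Only miR-9* averaged above 0, the level of that percentile. It measured 3.52, 3.67 and 3.39 on the monocularly deprived arrays, 3.40, 3.52 and 3.40 on the dark-reared arrays, and 3.28, 3.44 and 3.44 on the control arrays. The median of the 46 group means was -5.19 in monocularly deprived, -4.05 in dark-reared and -4.53 in control cortex, and 24, 21 and 21 star strands in the same group order averaged under -5. After miR-9*, the brightest star strands included miR-136*, encoded in the imprinted Dlk1-Dio3 cluster, at -1.21 ± 0.18 in monocularly deprived, -1.44 ± 0.10 in dark-reared and -1.36 ± 0.12 in control cortex (SD, n = 3 each). miR-124*, the partner of the neuronal miR-124, lay between -3.44 and -3.14 on every array, while its guide lay between 4.37 and 4.73.

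**Figure D1:**
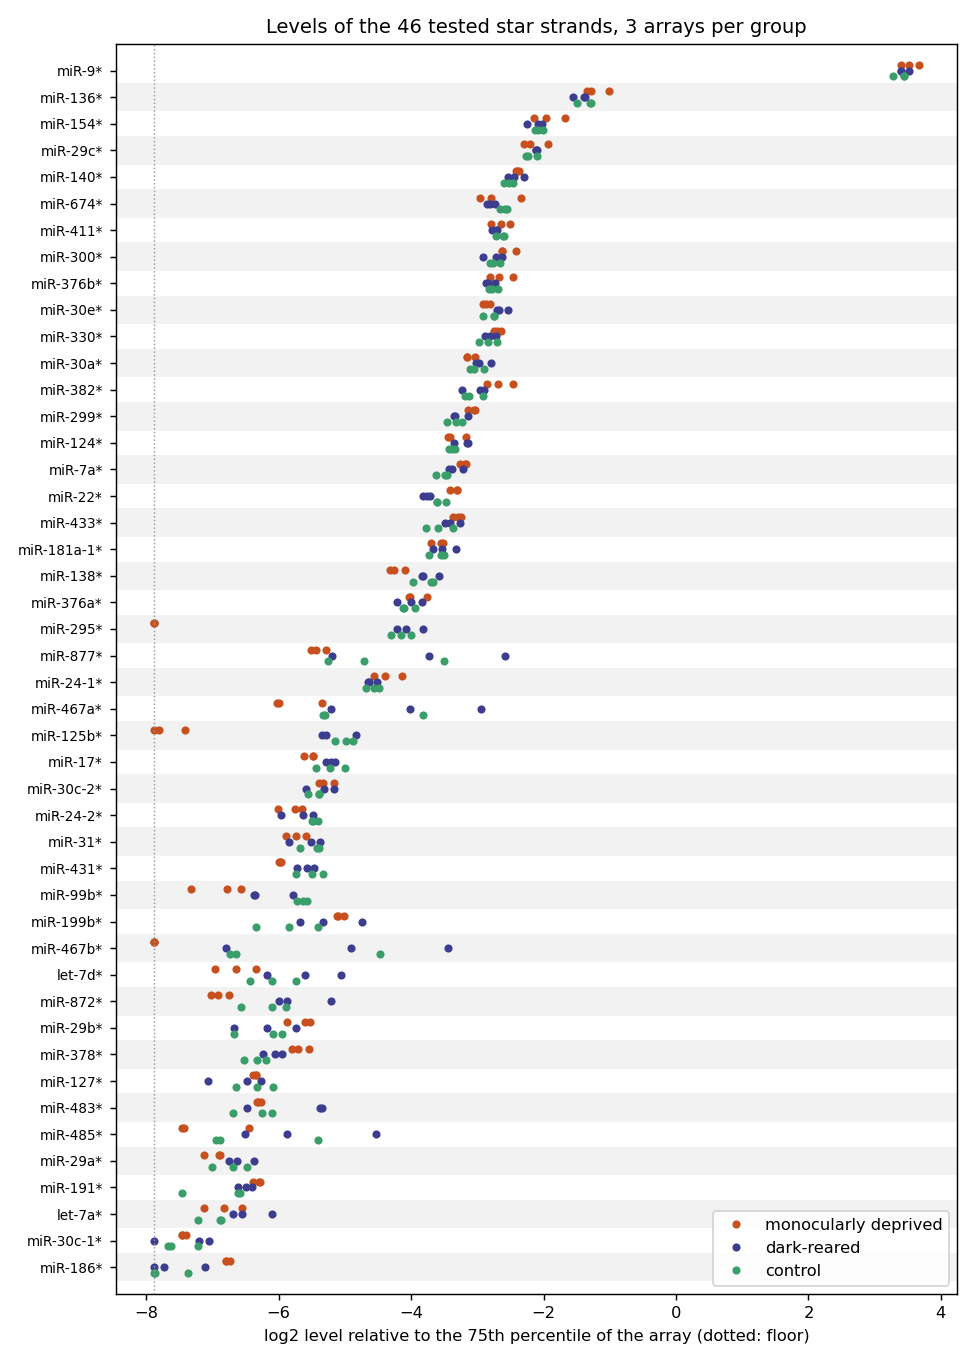
Scaled level (log2 over the array's 75th percentile) of the 46 tested star strands, 1 row per strand. Each point is 1 array of the monocularly deprived, dark-reared or control group, and the dotted line marks the floor of -7.89. miR-9* stands alone above 0, and the monocularly deprived points of miR-295*, miR-125b* and miR-467b* lie at or near the floor.

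Guides that mark the cell types of a cortical block were summed on the linear scale as a check of the tissue. The neuronal guides (miR-124, miR-9, miR-128 and miR-138) summed to 54.8 to 77.9 in monocularly deprived, 65.4 to 65.8 in dark-reared and 67.4 to 68.3 in control cortex, in units of the array's 75th percentile. Oligodendrocyte guides summed to 3.04 to 3.69, 2.50 to 3.49 and 2.43 to 3.12 in the same group order, and vascular guides to 1.94 to 2.11, 1.60 to 1.74 and 1.77 to 1.97. Erythrocyte guides summed to 2.69 to 3.00 in monocularly deprived, 1.44 to 2.62 in dark-reared and 1.33 to 2.56 in control cortex, and microglial guides to 0.265 to 0.348, 0.226 to 0.261 and 0.216 to 0.267. Choroid plexus and epithelial guides summed to 0.851 to 0.918, 0.932 to 1.23 and 0.703 to 0.778. No listed marker was at the floor on all arrays. The erythrocyte sums of the monocularly deprived arrays lay above those of both other groups. The choroid plexus and epithelial sums did not overlap between any of the 3 groups, and the vascular sums of the dark-reared arrays lay below both others. Neuronal sums of the dark-reared arrays lay below those of control, and microglial sums of the monocularly deprived arrays lay above those of dark-reared. Among all tested miRNAs, 18.6% did not overlap between dark-reared and control, and 52.8% between monocularly deprived and control. Between monocularly deprived and dark-reared, 148 of 318 did not overlap. The part of these cell types in the star strand differences was not tested. In bulk tissue, fewer cells of a type and less RNA per cell cannot be told apart.

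Dark rearing addressed the loss of all vision from birth. No star strand passed the test: limma called 0 of 46 (adjusted p under 0.05, Benjamini-Hochberg over all 318 tested miRNAs), where 0.629% of all tested miRNAs were called. At an unadjusted p under 0.05, limma found 3 star strands, and limma with an intensity trend called 0 and found 2. let-7a*, from a hairpin of the let-7 family of differentiation-linked microRNAs, measured -6.10, -6.55 and -6.70 on the dark-reared arrays, against -7.21, -6.89 and -6.87 on the control arrays. Its log2 difference was 0.54 (SE 0.20, limma adjusted p = 0.412), the groups did not overlap, and on its longest probe alone, which is also its brightest, the difference was -0.01. miR-22* measured -3.76, -3.82 and -3.72 on the dark-reared arrays, against -3.61, -3.61 and -3.48 on the control arrays. Its log2 difference of -0.20 (SE 0.08, limma adjusted p = 0.468) did not pass although the groups did not overlap.

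miR-99b*, from a hairpin clustered with let-7e and miR-125a, was the third of them. It measured -6.38, -5.78 and -6.35 on the dark-reared arrays, against -5.58, -5.73 and -5.63 on the control arrays, a log2 difference of -0.52 (SE 0.22, limma adjusted p = 0.507). The values of the second dark-reared array came close to the controls. In all, 6 of 46 star strands had groups that did not overlap, beside 18.6% of all tested miRNAs. miR-9* differed by 0.05 and miR-124* by 0.17, and both groups overlapped. With the replicate number as a block across all 9 arrays, again 0 star strands were called, with 6 at an unadjusted p under 0.05.

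Star strands and guides moved little against each other after dark rearing. The log2 ratio of star to guide was taken within each array, where the array's scaling cancels, and its change was tested with limma across 59 arm pairs: the 40 star-guide pairs that could be tested and 19 pairs named 5p and 3p. Of the 40 star-guide ratios, 0 were called (0% of all 59 pairs), 1 reached an unadjusted p under 0.05, and limma with an intensity trend also called 0. The estimated change was within 0.5 of 0 in 36 of 40 pairs and within 0.25 in 30. The 95% interval of the change lay wholly within 0.5 of 0 in 24 of 40 pairs and within 1 in 33. For the 23 pairs with both strands well above background on all 9 arrays, these counts were 17 and 22, and the median half-width of the interval was 0.23. For the remaining pairs a change of more than 0.5 in either direction was not always outside the interval.

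The pair that reached an unadjusted p under 0.05 was miR-99b* over miR-99b. Its log2 ratio was -4.55, -4.29 and -4.64 in dark-reared cortex, against -3.93, -4.13 and -3.94 in control cortex, a change of -0.49 (SE 0.16, limma adjusted p = 0.566). The guide miR-99b, of a family that is widely expressed in brain, differed by -0.03, so the difference sat in the star strand, which was well above background on 4 of 9 arrays. miR-9* over miR-9 was 0.29, 0.25 and 0.32 in dark-reared cortex, against -0.02, 0.11 and 0.23 in control cortex. That change of 0.18 (95% interval -0.05 to 0.41) did not pass, although the groups did not overlap. miR-136* over miR-136 differed by -0.08 (-0.24 to 0.08) and miR-124* over miR-124 by 0.15 (-0.11 to 0.40). Same-numbered control and dark-reared arrays paired in part, as described with the processing. On slide 1 alone with the replicate number as a block, 1 of 35 ratios passed. It was miR-483* over miR-483, higher by 0.66 (limma adjusted p = 0.0404). miR-483* was not well above background on any array and entered the test through its detection in dark-reared cortex.

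Monocular deprivation addressed the loss of patterned vision through 1 eye for 4 days. Of the 46 star strands, 9 passed the test against control, beside 33% of all tested miRNAs. The 3 that were higher (beside 15.7% of all tested miRNAs) were miR-186*, miR-378* and miR-7a*. Of these, miR-186* and miR-378* entered the test only through monocularly deprived cortex. The 6 that were lower (beside 17.3%) were miR-295*, miR-125b*, miR-99b*, miR-872*, miR-431* and miR-138*. In 22 of 46 star strands the groups did not overlap, beside 52.8% of all tested miRNAs. The median log2 change of the 46 was 0.05, against 0.08 over all tested miRNAs. With normexp background correction (offset 50 intensity units) limma called 0 of 46, with 0 at an unadjusted p under 0.05, and miR-186*, miR-378* and miR-7a* took the opposite sign. The balance of directions depended on scaling: 28 were called higher and 4 lower with the percentile taken over all probes, 13 higher and 2 lower with quantile normalization, and 0 higher and 4 lower without scaling. With the percentile over all probes miR-138* and miR-431* turned to 0.11 and 0.096, and with quantile normalization miR-431* and miR-872* turned to 0.079 and 0.042.

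The largest decrease was in miR-295*, the passenger strand of a hairpin of the miR-290 cluster, which is known from mouse embryonic stem cells. It was at the floor of -7.89 on all 3 monocularly deprived arrays, and measured -4.30, -4.01 and -4.16 on the control arrays. No monocularly deprived array had it well above background. On its brightest probe it was at least 3.76-fold lower in monocularly deprived cortex (limma adjusted p = 2.46e-07, fitted log2 change -3.73, SE 0.12). The 3 equal floor values add no spread to the fit, which favours a small p. Its guide miR-295 was detected on 0 arrays, and the dark-reared arrays measured -4.08, -3.82 and -4.22 for the star strand. The probes for miR-295* pair with 11 to 14 bases of it, and the log2 change ran between -4.11 and -0.29 across its probes.

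miR-125b* comes from a hairpin whose guide, miR-125b-5p, is abundant in brain. It measured -7.42, -7.89 and -7.81 on the monocularly deprived arrays, against -5.15, -4.88 and -4.98 on the control arrays. The decrease was at least 1.73-fold on its brightest probe (limma adjusted p = 7.9e-06, fitted log2 change -2.70, SE 0.17), since no monocularly deprived array had it well above background. The guide measured 4.27, 4.34 and 4.22 on the monocularly deprived arrays, against 4.20, 4.36 and 4.29 on the control arrays, and these overlapped. The signals named miR-125b* and miR-125b-5p therefore did not change alike on these arrays as processed here. The call of miR-125b* was lost with normexp background correction, with or without spots of bright local background. Its change was then as small as -0.19 (limma adjusted p up to 0.699). The probes of miR-125b* fell by 1.67 on the log2 scale at a pairing length of 16 bases and by 2.88 at 13 bases.

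miR-99b* measured -6.78, -7.32 and -6.57 on the monocularly deprived arrays, against -5.58, -5.73 and -5.63 on the control arrays. All monocularly deprived values lay below all control values, with a log2 change of -1.24 (SE 0.22, limma adjusted p = 0.0042), and it was well above background on 1 monocularly deprived and 2 control arrays. miR-138*, whose guide is enriched in neurons and limits dendritic spine size in rat neurons, measured -4.10, -4.32 and -4.26, against -3.98, -3.70 and -3.68 in control cortex. It was lower by 0.44 (log2 change -0.44, SE 0.12, limma adjusted p = 0.0216), and on its longest probe the change was -0.24 (adjusted p = 0.141). miR-431*, from the Dlk1-Dio3 region, measured -5.97, -6.00 and -5.97, against -5.75, -5.34 and -5.50 in control cortex (log2 change -0.46, SE 0.12, limma adjusted p = 0.0184). The single probe of miR-431* that was well above background on all 9 arrays, of 17 bases, differed by -0.02.

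miR-872* measured -6.75, -6.91 and -7.03 in monocularly deprived cortex, against -5.89, -6.57 and -6.10 in control cortex. Its log2 change of -0.71 (SE 0.24) lay at the threshold (limma adjusted p = 0.0497). The call was lost without control array 1 (adjusted p = 0.17) or 3 (0.113), dark-reared array 2 (0.0679) or 3 (0.0504), or any monocularly deprived array (0.0863 to 0.13). Other calls lost without a single array were those of miR-138* (adjusted p = 0.0743 without control array 2, 0.0621 without control array 3 and 0.0627 without monocularly deprived array 3) and miR-431* (0.0595 without control array 2 and 0.0562 without monocularly deprived array 1). That of miR-7a* was lost without control array 1 (0.054), control array 2 (0.0549) or monocularly deprived array 1 (0.0875). The calls of miR-295*, miR-125b* and miR-99b* were kept without any single array. For miR-295* and miR-125b*, at or near the floor in monocularly deprived cortex, entry through the brighter groups favoured a decrease to some extent. Those of miR-186* and miR-378* were kept too, but these strands entered the test only through monocularly deprived cortex and had to differ to some extent.

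Of the star strands that rose, miR-7a* comes from hairpins of a microRNA known in brain and neuroendocrine cells. It measured -3.18, -3.17 and -3.26 on the monocularly deprived arrays, against -3.63, -3.48 and -3.45 on the control arrays, a log2 change of 0.32 (SE 0.09, limma adjusted p = 0.0259). Its guide miR-7a also rose, by 0.77, and this was the sole hairpin of the 40 in which both strands were called. miR-378*, from an intron of the metabolic coactivator gene Ppargc1b, measured -5.72, -5.55 and -5.80, against -6.52, -6.33 and -6.19 in control cortex (log2 change 0.66, SE 0.12, limma adjusted p = 0.0047). The dim miR-186* measured -6.79, -6.80 and -6.74, against -7.89, -7.87 and -7.37 in control cortex (log2 change 0.93, SE 0.21, limma adjusted p = 0.0122). Neither miR-378* nor miR-186* was well above background on any control array, and no lower bound of a fold above 1 could be given for them.

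When monocularly deprived cortex was set against control, some strand ratios were called different and most were not, which alone does not show them fixed. Of the 40 star-guide ratios, 9 passed the test, beside 23.7% of all 59 arm pairs. Of these, 7 were higher (beside 16.9%) and 2 were lower (beside 6.78%) in monocularly deprived cortex. The higher ones include miR-186* and miR-378*, which entered the test only through that group. Among the 23 pairs with both strands well above background on all 9 arrays, 3 passed: miR-9*, miR-136* and miR-411*. The star strand was called without its guide in 6 of 40 hairpins and the guide without its star strand in 9. Star and guide differed from control with the same sign in 21 of 40 hairpins, in 16 of those 23. With normexp background correction limma called 0 of 40 ratios, with 2 at an unadjusted p under 0.05, and the ratios of miR-186*, miR-378* and miR-30c-1* took the opposite sign.

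miR-9* over miR-9 was the brightest pair to shift. The log2 ratio was 0.71, 0.92 and 0.62 in monocularly deprived cortex, 0.29, 0.25 and 0.32 in dark-reared cortex, and -0.02, 0.11 and 0.23 in control cortex. All monocularly deprived values lay above the other 6, with a change against control of 0.64 (SE 0.10, limma adjusted p = 0.0011). With the reported scaling, most of it sat in the guide. That strand measured 2.81, 2.75 and 2.77 on the monocularly deprived arrays, against 3.31, 3.33 and 3.21 on the control arrays. The guide fell by 0.50 on the log2 scale (limma adjusted p = 0.0022), and the star strand differed by 0.14 and was not called. How a ratio change divides between its strands, here and in the pairs below, depends on the scaling, which cancels only in the ratio. With the percentile over all probes, the median change of all tested miRNAs against control moved from 0.08 to 0.62.

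miR-136* over miR-136 was -1.86, -1.93 and -1.87 in monocularly deprived cortex, -2.43, -2.38 and -2.46 in dark-reared cortex, and -2.31, -2.43 and -2.29 in control cortex. The change of 0.46 (SE 0.07, limma adjusted p = 9.8e-04) was made of a star strand difference of 0.15 and a guide difference of -0.31, neither of which was called alone. miR-411* over miR-411, from the same imprinted region, went the other way. It was -0.65, -0.70 and -0.82 in monocularly deprived cortex, -0.30, -0.30 and -0.41 in dark-reared cortex, and -0.47, -0.33 and -0.30 in control cortex. The change was -0.35 (SE 0.08, limma adjusted p = 0.0111), with the guide higher by 0.34 (called) and the star strand different by -0.01, and it was lost without monocularly deprived array 3 (adjusted p = 0.052).

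**Figure D2:**
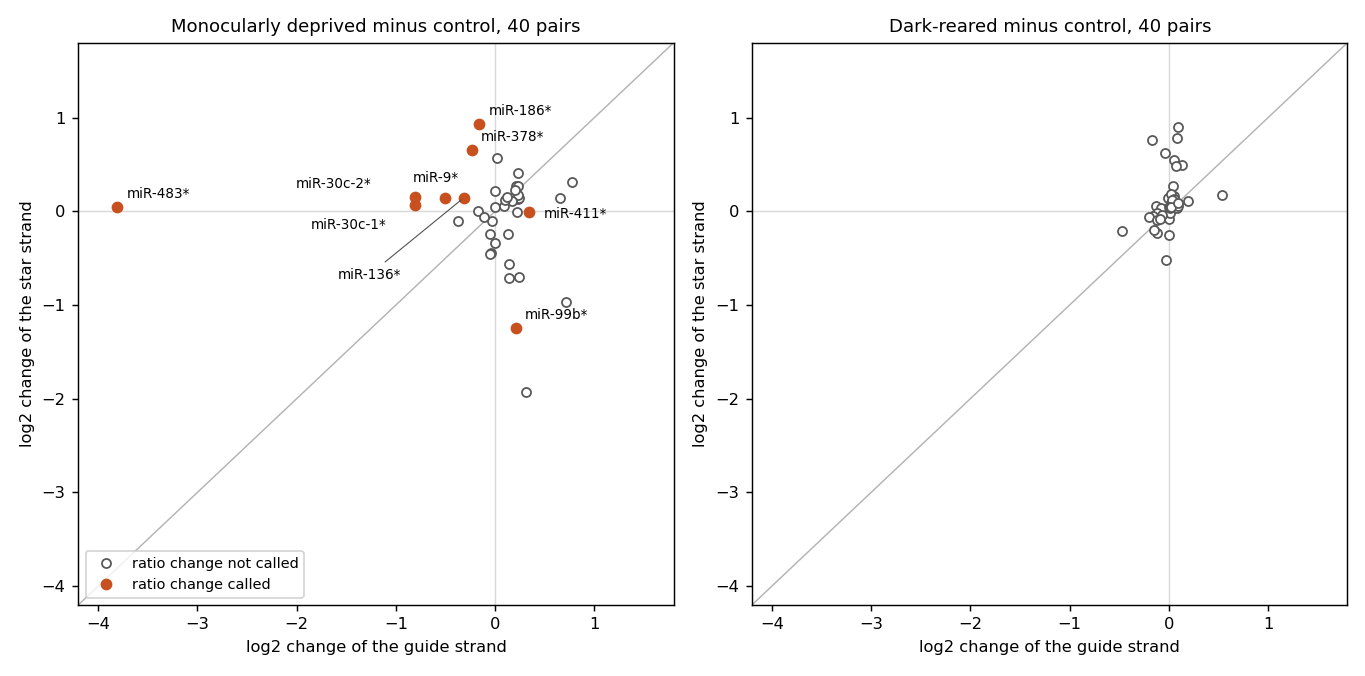
Log2 change of the star strand (vertical axis) against that of its guide (horizontal axis) for 40 pairs, with monocularly deprived against control on the left and dark-reared against control on the right. Filled points are ratios that passed the test, and on the diagonal a ratio is unchanged. The 9 filled points are all in the left panel, and the miR-483* point is drawn at the measured guide signal, which was not well above background in monocularly deprived cortex.

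The ratios of both miR-30c star strands moved with the guide that they share. miR-30c, of a family with broad expression in brain and other tissues, measured 1.05, 1.15 and 0.92 on the monocularly deprived arrays, against 1.81, 1.86 and 1.86 on the control arrays, a log2 change of -0.80 (called). miR-30c-2* over miR-30c was -6.38, -6.32 and -6.31 in monocularly deprived cortex, against -7.37, -7.24 and -7.26 in control cortex. That is a change of 0.95 (SE 0.10, limma adjusted p = 1.4e-04), with the star strand itself not called. miR-30c-1* over miR-30c rose by 0.87 (SE 0.22, limma adjusted p = 0.0181), and miR-30c-1* was well above background on 2 of 9 arrays. The miR-30c-1* call was lost without control array 2 (adjusted p = 0.0631), control array 3 (0.0689) or monocularly deprived array 3 (0.0724). miR-30a* over miR-30a, in contrast, differed by -0.07 (95% interval -0.29 to 0.15), with both strands well above background throughout.

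Of the remaining called ratios, miR-99b* over miR-99b was -5.40, -5.78 and -5.17 in monocularly deprived cortex, against -3.93, -4.13 and -3.94 in control cortex. The change of -1.45 (SE 0.16, limma adjusted p = 1.9e-04) followed the star strand. miR-378* over miR-378 was -2.22, -2.02 and -2.13, against -3.12, -3.04 and -2.87 in control cortex (change 0.89, SE 0.11, limma adjusted p = 3.0e-04). miR-186* over miR-186 was -2.83, -2.91 and -2.63, against -3.98, -4.08 and -3.57 in control cortex (change 1.09, SE 0.21, limma adjusted p = 0.0046). The ratio of miR-483* over miR-483 was also called higher (limma adjusted p = 3.7e-05). The guide measured -6.91, -7.71 and -7.03 on the monocularly deprived arrays, against -3.50, -3.35 and -3.39 on the control arrays. As no monocularly deprived array had the guide well above background, its decrease is given as at least 4.50-fold and the ratio with no size. The star strand of miR-483 differed by 0.04 and was not well above background on any array.

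**Figure D3:**
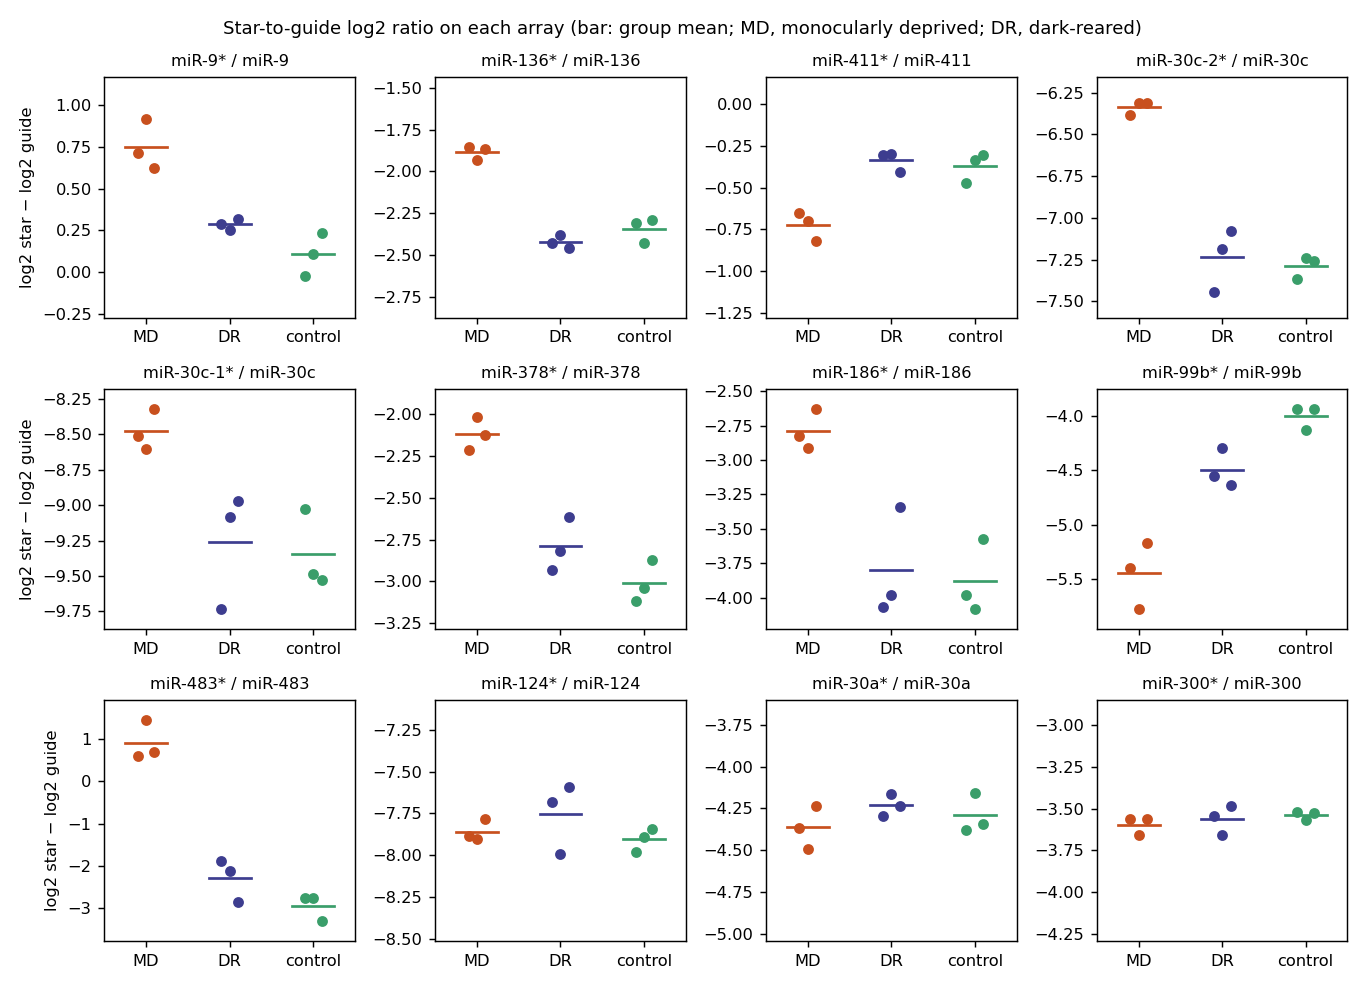
Log2 ratio of star strand to guide within each array for star-guide pairs, with 1 panel per pair, a point per array and a bar at each group mean. In the miR-9* and miR-136* panels the 3 monocularly deprived points lie above all 6 others, for miR-411* they lie lower than them, and in the miR-124*, miR-30a* and miR-300* panels the groups overlap.

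Of the 23 pairs with both strands well above background on all 9 arrays, 20 were not called, and in 13 of these the 95% interval of the change lay within 0.5 of 0. miR-124* over miR-124 was -7.89, -7.90 and -7.78 in monocularly deprived cortex, against -7.98, -7.89 and -7.84 in control cortex. The change was 0.05, with a 95% interval of -0.21 to 0.30. miR-22* over miR-22 differed by 0.02, as the star strand differed by 0.23 and the guide by 0.20, and neither passed the test. miR-300* over miR-300 differed by -0.06 (-0.23 to 0.11). In the other 7 of the 20 the interval reached beyond 0.5. The widest was that of let-7d* over let-7d, with a change of -0.70 (-1.46 to 0.05) and a span of 2.02 over the 9 arrays. miR-29b* over miR-29b differed by 0.55 (-0.08 to 1.19), miR-7a* over miR-7a by -0.46 (-0.91 to -0.005), miR-431* over miR-431 by -0.41 (-0.77 to -0.04) and miR-138* over miR-138 by -0.40 (-0.72 to -0.09). The last 3 intervals left out 0, but none passed after adjustment. Over all 40 pairs, the interval lay within 0.5 of 0 in 14. Over all 9 arrays the ratio spanned less than 0.5 in 13 of 40 pairs and in 12 of those 23, and its median span was 0.73 over the 40 and 0.40 over the 23. As probes differ in brightness, the level of a ratio does not measure the share of each strand, and only its changes are compared here. The levels ran from -10.5 for miR-29a* to 4.73 for miR-330*, and the star strand read brighter than its guide in 5 of 40 pairs.

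The changes against control in monocularly deprived cortex followed the length of the probes. Agilent miRNA probes pair with a stretch of the miRNA that is shortened to even out the melting temperature, so a shorter pairing length marks a GC-richer stretch. The pairing length was read from each probe's sequence in the files. Over the 46 star strands, the log2 change in monocularly deprived against control cortex rose with the length of the longest probe (Spearman's rho 0.69, Pearson's r 0.57, across names that share the same 6 arrays). Over the 27 star strands well above background on all arrays rho was 0.64. For dark-reared against control, rho was 0.04 over the 46. The other 272 tested mouse names gave rho 0.45 for monocularly deprived and 0.28 for dark-reared against control, so the relation was present outside the star strands. Brightness went with the change too, by tertiles of level (dim, middle and bright). In monocularly deprived against control, 25 dim star strands had a median of -0.25 and held 7 calls, and 19 middle ones had 0.12. The other names gave -0.28 for 81 dim and 0.12 for 87 middle ones. The part of brightness was not tested.

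Splitting the star strands at their median length of 18.5 bases showed the same. Of the 23 with shorter probes, 6 were called lower and 1 higher, and 17 had a change below 0 (median log2 change -0.34). Of the 23 with longer probes, 0 were called lower and 2 higher, and 3 had a change below 0 (median 0.15). Changes of the ratio followed the length of the star probe minus that of the guide probe, with rho 0.63 over 40 pairs in monocularly deprived and 0.26 in dark-reared against control. Over the 23 pairs with both strands well above background on all arrays, these were rho 0.52 and 0.40, and r 0.34 and 0.39. Probe length thus moved with the star strand results, and its part in them was not tested.

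**Figure D4:**
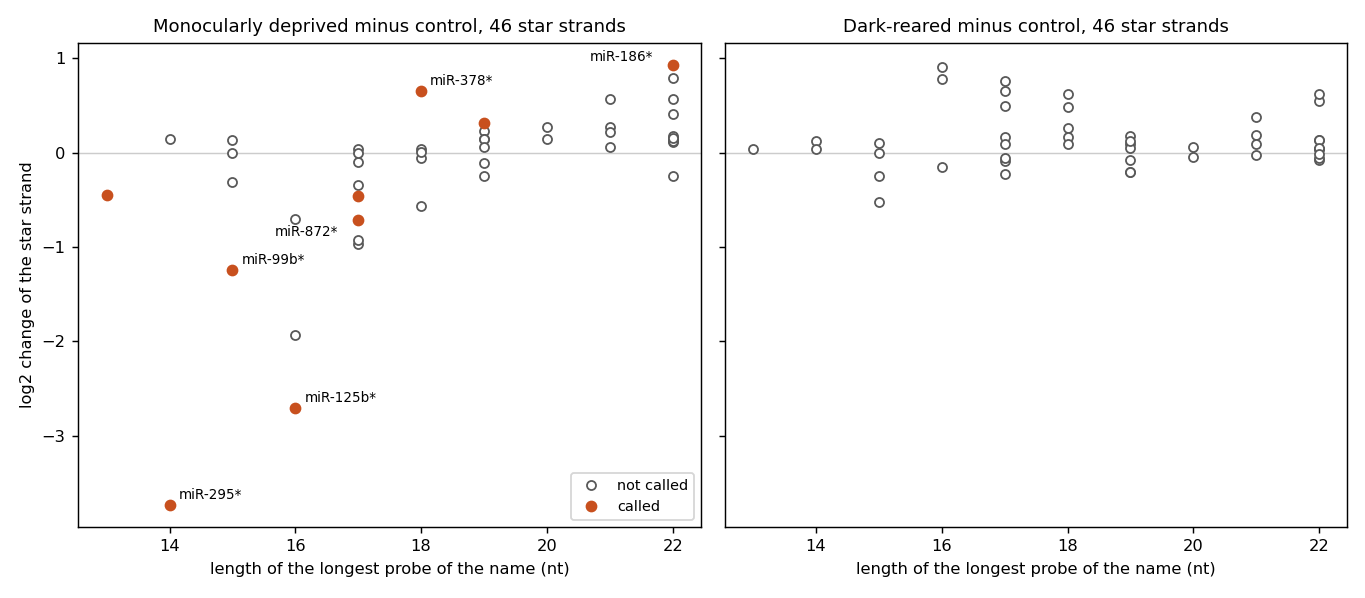
Log2 change of each of the 46 tested star strands (vertical axis) against the pairing length of its longest probe in bases (horizontal axis), with monocularly deprived against control on the left and dark-reared against control on the right. Filled points passed the test. On the left the points under 0 gather at short lengths, and on the right they lie around 0 at every length.

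Different probes of the same strand gave a closer view. For 185 mouse names with at least 2 probes well above background on all 9 arrays, the change in monocularly deprived against control was higher on the longest than on the shortest probe in 167 (median difference 0.12). The same difference for dark-reared against control was above 0 in 145 (median 0.04). Among star strands it was above 0 in 15 of 18 (median 0.10) and 13 of 18 (median 0.04) for the same comparisons, and among guides in 56 of 59 (0.16) and 48 of 59 (0.04). For miR-9 the log2 change was -0.38 on the probe of 19 bases and -0.78 on that of 18 bases, and for miR-9* it was 0.19 and 0.07. For miR-136 it was -0.25 at 22 bases and -0.54 at 21, and for miR-136* 0.13 and 0.17. For miR-30c it was -0.61 at 18 bases and -1.69 at 17, and for miR-30c-2* 0.12 and 0.26.

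With the reported scaling, both guide probes of miR-9, miR-136 and miR-30c were lower in monocularly deprived cortex. Both probes of their star strands (miR-30c-2* for miR-30c) were higher. Those signs depend on the scaling, but dividing an array by a percentile does not alter the difference of star and guide. The direction of the ratio thus did not rest on 1 probe, while its size did. For miR-411 the change was 0.37 at 18 bases and 0.28 at 17. When every name was read from its longest probe alone, 10 of 40 ratios passed. They were the 9 called above plus miR-29a* over miR-29a (-0.63, limma adjusted p = 0.0012). On that reading the changes were 0.57 for miR-9*, 0.38 for miR-136*, 0.74 for miR-30c-2* and -0.35 for miR-411*. This reading was added after the data were seen.

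**Figure D5:**
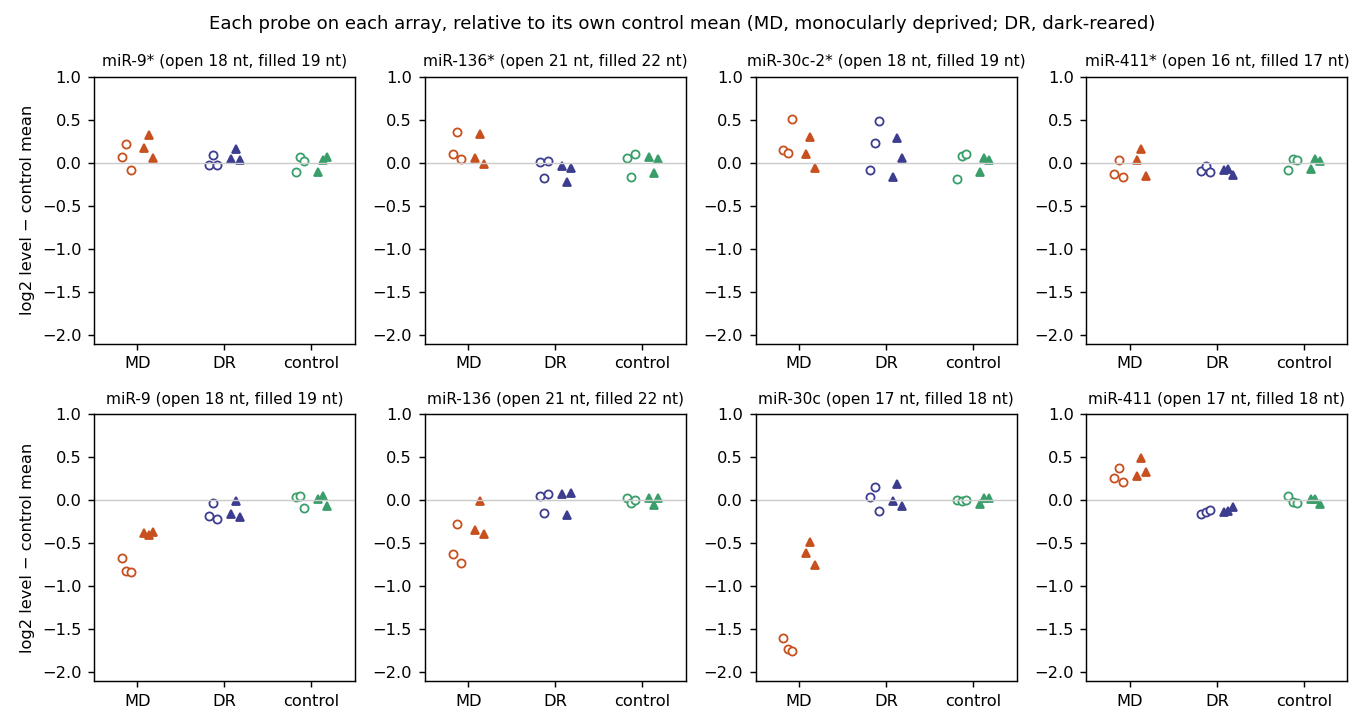
Log2 level of each probe on each array minus the mean of that probe over the 3 control arrays, with star strands in the upper row and their guides in the lower row. Circles are the shorter and triangles the longer probe, in bases (nt) as titled. In monocularly deprived cortex the circles of miR-9 lie below its triangles (mean changes -0.78 and -0.38), and in dark-reared cortex both lie near 0.

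Monocularly deprived and dark-reared cortex were also compared directly, with the same monocularly deprived arrays as above. Of the 46 star strands 11 passed, beside 28.6% of all tested miRNAs. The 3 that were higher in monocularly deprived cortex (beside 9.75%) were miR-22* (log2 change 0.43), miR-186* (0.80) and miR-378* (0.39). miR-186* and miR-378*, and miR-467b* among the lower, entered the tests only through the group in which they were higher. The 8 that were lower (beside 18.9%) were miR-295* (at least 4.03-fold), miR-125b* (at least 1.56-fold), miR-467b* (at least 1.89-fold), miR-872* (-1.20), let-7d* (-1.05), miR-99b* (-0.72), miR-138* (-0.48) and miR-431* (-0.39). miR-22*, from a hairpin expressed in many tissues, measured -3.31, -3.30 and -3.41 in monocularly deprived cortex, against -3.76, -3.82 and -3.72 in dark-reared cortex (limma adjusted p = 0.0052). With the percentile over all probes 28 were called higher and 5 lower, with quantile normalization 14 higher and 3 lower, and without scaling 0 higher and 5 lower. The count of 11 dropped to 7 without control array 2 or dark-reared array 2, to 6 without dark-reared array 1 or monocularly deprived array 2 or 3, and to 5 without monocularly deprived array 1.

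Of the 40 ratios 16 passed between monocularly deprived and dark-reared cortex, beside 40.7% of all arm pairs. The 7 that were higher (beside 18.6%) included miR-9* (change 0.47, limma adjusted p = 0.0079) and miR-136* (0.54, adjusted p = 4.7e-04), and also miR-30c-1*, miR-30c-2*, miR-186*, miR-378* and miR-483*. The 9 that were lower (beside 22%) were miR-99b* (-0.96), miR-411* (-0.39), miR-872* (-1.22), miR-29a* (-0.53), miR-431* (-0.54), miR-138* (-0.43), let-7d* (-1.12), miR-467a* (-2.61) and miR-467b* (-3.06, with the star strand at the floor on the monocularly deprived arrays). The guide miR-467a was detected on 5 of 9 arrays, so in full in only 1 group. It measured -5.59, -5.61 and -5.62 on the monocularly deprived arrays, against -6.78, -6.63 and -6.05 on the dark-reared arrays. If the pair entered through monocularly deprived cortex, the miR-467a* ratio had to be lower there to some extent. With quantile normalization 14 ratios were called higher and 5 lower. The count was 10 without monocularly deprived array 1 or 3. With the longest probe alone, miR-431* over miR-431 differed by 0.01, the opposite sign.

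The star strands were also grouped by the known roles of their hairpins. Of 7 star strands of neuronal hairpins on the array, 4 were tested. Against control in monocularly deprived cortex miR-7a* was higher (beside 15.7% of all tested miRNAs) and miR-138* lower (beside 17.3%). miR-9* and miR-124* were not called. Of 10 from glia-linked hairpins (the miR-29, miR-24, miR-27 and miR-181 groups and miR-22), 7 were tested. Against control, limma called 0 of their star strands (beside 33% of all tested miRNAs) and 0 ratios (beside 23.7% of arm pairs). The median log2 change of the star strands was 0.06. Against dark-reared cortex 1 star strand was higher (miR-22*), beside 9.75% of all tested miRNAs, and 1 ratio was lower (miR-29a*), beside 22% of arm pairs. Of 13 from the Dlk1-Dio3 region, 12 were tested, with a median against control of 0.13 beside 0.08 for all tested miRNAs. Among them 1 star strand was lower (miR-431*), beside 17.3% of all tested miRNAs. Of their ratios 1 was higher (miR-136*), beside 16.9% of arm pairs, and 1 lower (miR-411*), beside 6.78%. Of 9 from the let-7, miR-99 and miR-125 hairpins, 4 were tested and 2 were lower against control (miR-125b* and miR-99b*), beside 17.3% of all tested miRNAs. Against dark-reared cortex 3 of these 4 were lower (let-7d* as well), beside 18.9%, all 4 lay below 0 (median -0.88), and 2 of 3 ratios were lower, beside 22% of arm pairs. Of 5 miR-30 star strands 4 were tested, with 0 called against control, beside 33% of all tested miRNAs. Of their ratios 2 were higher, both over miR-30c, beside 16.9% of arm pairs.

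For the other lists few star strands could be tested. The activity-regulated list had miR-485*, which measured -7.47, -6.45 and -7.43 in monocularly deprived, -4.53, -5.88 and -6.51 in dark-reared and -5.41, -6.95 and -6.89 in control cortex, and was not called in any comparison. The Sfmbt2 cluster had miR-467a* and miR-467b*, neither of them called against control. Against dark-reared cortex miR-467b* was lower (beside 18.9% of all tested miRNAs) and both ratios were lower (beside 22% of arm pairs), with the spread between arrays described next. The miR-17 to miR-92 hairpins had 1 of 8 tested (miR-17*, not called), and the miR-290 cluster had 1 of 6 (miR-295*). Of 3 vascular, 3 microglial or leukocyte (miR-21*, miR-146b* and miR-150*) and 6 epithelial star strands on the array, 0 were tested. After dark rearing, 0 star strands and 0 ratios of any list were called, beside 0.629% of all tested miRNAs and 0% of arm pairs. The median change of the 4 tested miR-30 star strands was then 0.10, and that of the 12 Dlk1-Dio3 star strands was -0.03.

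A few star strands varied far more between arrays of a group than the rest. The within-group SD was under 0.2 for 29 of 46 star strands and over 0.5 for 4, namely miR-467b* (1.22), miR-877* (0.92), miR-467a* (0.85) and miR-485* (0.84). miR-877*, from a hairpin formed by a spliced intron, measured -5.44, -5.28 and -5.52 in monocularly deprived, -2.58, -3.73 and -5.19 in dark-reared and -3.50, -4.72 and -5.25 in control cortex. miR-467b* was at the floor of -7.89 in monocularly deprived cortex, and measured -3.45, -4.91 and -6.79 in dark-reared and -4.48, -6.65 and -6.74 in control cortex. In 6 star strands (let-7d*, miR-467a*, miR-467b*, miR-485*, miR-872* and miR-877*), dark-reared arrays 1 and 2 and control array 1 all lay above the other 6 arrays. For these 6 the groups cannot be compared without that spread, and the calls of let-7d*, miR-467a*, miR-467b* and miR-872* between monocularly deprived and dark-reared cortex include it. Without dark-reared array 1 the adjusted p of let-7d* was 0.1, and that of miR-467b* was 0.0975.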

How the data were processed

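MicroRNAs were measured on 9 one-colour Agilent arrays, 3 per group. The deposited scanner files hold fluorescence intensity for 13000 miRNA spots per array. Per the file headers, background was subtracted and outlier spots were called by Feature Extraction 10.1.1.1. The deposited series matrix equalled the processed intensity in 100% of spots within 1e-05.

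Spots called outliers (367 to 638 per array) were left out. Processed intensities were averaged by probe and then by name, and divided by the 75th percentile of 433 probes well above background on all 9 arrays (401 to 1022 intensity units). It was then raised to a floor (the 1st percentile of detected names) and turned into log2, so the log2 levels were computed from the deposited intensity. Depth does not apply to arrays, and their number limits the precision. limma 3.58.1 in R 4.3.3 fitted 3 group means to the 318 miRNAs that some group showed as detected on its 3 arrays, with 6 residual degrees of freedom. The same model was fitted to the log2 ratios of 59 arm pairs. Benjamini-Hochberg adjusted p under 0.05 was a call. Both fits were first tested on simulated data. Where no array of a group had a probe well above background, the fold is a lower bound, taken on the brightest probe against the lowest signal well above background.

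Control and dark-reared arrays of the same number shared a column of slide 1 and deviated together (r = 0.887, 0.324 and 0.815 across miRNAs). Control array 2, however, deviated more closely with dark-reared array 3 (r = 0.615). Control array 1 deviated against dark-reared array 3 (r = -0.829), and control array 3 against dark-reared array 1 (r = -0.764). Deviations within a group of 3 arrays offset each other, so these r values are not independent. The numbers thus match for arrays 1 and 3, and less so for array 2, which is weak evidence of pairing. For the monocularly deprived arrays the numbers showed no such match. Sequences came from RefSeq tables on GRCm38.p6, and figures were drawn with matplotlib 3.10.9. Named miRNAs were the called ones, at most 12 in each direction by size of change, filled to 12 by p, plus strands of neuronal, glial or activity-linked hairpins and up to 3 members of each list. The members and lists were chosen with earlier results of these data known. Alternatives changed scaling, background correction, probe summary, filter, floor, test, pairing and block, and left out each array.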

Additional observations from a re-analysis of the deposited data

How the results depend on the processing

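Between dark-reared and control cortex, 0 star strands were called by limma under any setting, and 0 ratios except on slide 1 alone with the replicate block (1). The other counts depended on scaling and background. The number of star strands called between monocularly deprived and control (9 as reported) was 32 with the percentile taken over all probes, which moved the median of all miRNAs to 0.62, 15 with quantile normalization, 4 without scaling, 2 with probes well above background on all 9 arrays, and 0 with normexp background correction, with or without spots of bright local background (0 and 2 at an unadjusted p under 0.05). Between monocularly deprived and dark-reared (11 as reported) it was 33, 17, 5, 2, 0 and 0 in the same order, 7 with the brightest or the longest probe, 6 with names detected on all 9 arrays and 5 without a filter. Ratio calls against control (9 as reported) numbered 14 with quantile normalization, 25 without a filter, 5 with both strands detected on all 9 arrays, 3 with probes well above background on all 9, 0 with normexp (2 unadjusted) and 5 with normexp without bright spots. Against dark-reared (16 as reported) they numbered 10, 4, 0 (2 unadjusted) and 4 for the last 4 of these. Leaving out 1 array gave 6 to 13 star strands against control and 5 to 13 against dark-reared, and 7 to 11 and 10 to 18 ratios. The replicate block, where the monocularly deprived arrays share only a number, gave 15 ratio calls against control, and 11 and 13 star strands. The ratio changes of miR-9* and miR-136* against control were kept in 26 of 27 alternatives and lost with normexp (0.64 and 0.20).

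Signs turned as follows. With the percentile over all probes, the star strand changes against control were 0.11 for miR-138*, 0.31 for miR-29a* and 0.096 for miR-431*, and against dark-reared 0.20 for miR-138* and 0.28 for miR-431*. With quantile normalization, the changes against control were 0.46 for miR-29a*, 0.079 for miR-431*, 0.042 for miR-872* and 0.46 for the miR-29a* ratio, and against dark-reared 0.34 for miR-431*, 0.31 for miR-99b*, 0.54 for the miR-29a* ratio and 0.064 for the miR-138* ratio. Without scaling, miR-9* differed by -0.091 against control. With normexp, changes against control were -0.66 for miR-186*, -0.60 for miR-378*, -0.34 for miR-7a*, and -0.058, -0.029, -0.025 and -0.76 for the ratios of miR-186*, miR-378*, miR-30c-1* and miR-29b*. Against dark-reared they were -0.67 for miR-186*, -0.62 for miR-378*, -0.30 for miR-22*, and -0.11 and -0.054 for the ratios of miR-186* and miR-378*. With normexp without bright spots, changes against control in monocularly deprived cortex were 0.13 for miR-29a*, 0.089 for miR-431*, 0.078 for miR-872*, 0.010 for miR-99b* and 0.017 and 0.021 for the ratios of miR-29a* and miR-431*, and in dark-reared cortex 0.016 for miR-22*, 0.068 for miR-99b* and 0.067 for its ratio. With the brightest or the longest probe, let-7a* differed by -0.0056 after dark rearing. With these probes, or with probes well above background on all 9 arrays, miR-431* differed by 0.16 and its ratio by 0.011 against dark-reared, and its ratio by 0.00081 against control. The cause of these turns was not tested. Normexp with all spots moved the median change against control to -0.42 over all miRNAs and -0.61 over the star strands, and against dark-reared to -0.39 and -0.61. Normexp without bright spots, the longest probe, slide 1 alone and the pairing of miR-125b* with miR-125b-5p were added after the data were seen. Signal over background limits the 19 tested star strands that were not well above background on every array.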
